A study of Mus musculus with 16 samples.

Results

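The genes described here make prostaglandins, thromboxane and leukotrienes, and the 10 members are Pla2g4a, Ptgs1, Ptgs2, Ptges, Ptges2, Ptges3, Tbxas1, Alox5, Alox5ap and Ltc4s. All 10 were found by symbol among the 14925 genes of the deposited 3′-UTR table, and no measured level was used to choose them. Reads had been counted over 3′-UTRs in bone marrow-derived macrophages (BMDMs), primary macrophages grown from mouse bone marrow, after RNA immunoprecipitation with an antibody against CPEB4 (RIP) and in the matching lysate RNA (Input). CPEB4 belongs to the CPEB family, whose members bind the cytoplasmic polyadenylation element (CPE) of 3′-UTRs. The BMDMs came from adult mice of the strain given as C57BL/6J 129, either wild type (WT) or Cpeb4-/- in the whole body (KO), and were left untreated or given LPS, a cell wall component of Gram-negative bacteria, at 10 ng/ml for 9 h. RIP and Input of each genotype and treatment make 8 libraries, and the 16 samples are their sequencing lanes, 2 per library, summed in 1 column each. No group therefore had a replicate and no p-value was computed. The sample titles carry the number 76 on all WT samples and 73 on all KO samples, with no word on what it marks, so that genotype and whatever the number stands for cannot be told apart.

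Eicosanoid synthesis starts when cytosolic phospholipase A2 (Pla2g4a) frees arachidonic acid from membranes. The cyclooxygenases, Ptgs1 (COX-1), commonly the constitutive form, and Ptgs2 (COX-2), the form known to be induced by inflammatory stimuli, turn it into prostaglandin H2. Terminal synthases then make prostaglandin E2 (Ptges, the inducible microsomal enzyme, and Ptges2) or thromboxane A2 (Tbxas1). Ptges3, also called p23, is an HSP90 co-chaperone to which a cytosolic prostaglandin E synthase activity has been ascribed. In the other branch 5-lipoxygenase (Alox5), helped by its activating protein FLAP (Alox5ap), makes leukotriene A4, and Ltc4s joins it to glutathione. Macrophages use both branches, and in many cells the Ptgs2 mRNA is short-lived and carries AU-rich elements in its 3′-UTR.

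The 3′-UTR regions in which the reads were counted differed widely in the motifs they hold. Motifs were searched on the transcript strand of GRCm38.p6 only, as DNA letters. They were canonical CPEs (TTTTAT or TTTTAAT), non-canonical CPEs (TTTTACT, TTTTAAAT, TTTTAAGT or TTTTCAT), the polyadenylation signal (AATAAA or ATTAAA) and the AU-rich pentamer (ATTTA). The string TTTTGT, which the paper also counts as a CPE, was not searched, so that every CPE count here leaves it out. The counts of CPEs and polyadenylation signals made this way equalled the deposited ones in 14925 of 14925 regions, while the pentamer was not compared. A match is a string of letters and not a shown binding site. The windows below show a part of the motifs of the members with the most CPEs, and not every CPE of Ptges and Ptges3 is printed. They have the motif in capitals and are written 5′ to 3′ with position in mm10 and strand. In the text, bases are counted from 1 at the 5′ end of the region.
Ptgs2 AU-rich pentamers, chr1:150105796-150105825 (+): atATTTATTTATTTAtgtgaagaATTTAat
Ptgs2 non-canonical CPE, chr1:150105846-150105871 (+): ctgaattttTTTTCATgtaacatctt
Ptgs2 non-canonical CPE, chr1:150106227-150106252 (+): caagttcagTTTTAAATaagcattta
Ptgs2 canonical CPE, chr1:150107194-150107219 (+): ttaaaaatatTTTTATttataattat
Ptgs2 canonical CPE, chr1:150107511-150107536 (+): gatgtaccttTTTTATgattacctct
Ptgs2 canonical CPE, chr1:150107880-150107905 (+): aagaaatataTTTTATtacaaagaaa
Pla2g4a canonical CPE, chr1:149829796-149829821 (-): tacctgtactTTTTATataaatatga
Pla2g4a canonical CPE, chr1:149829669-149829694 (-): acaacactatTTTTATttaaatgttt
Pla2g4a polyadenylation signal, chr1:149829637-149829662 (-): acacatacgaAATAAAtactttgctg
Ptges non-canonical CPE, chr2:30891687-30891712 (-): gtgtgtatgTTTTACTtttatgagac
Ptges canonical CPE, chr2:30890948-30890973 (-): tttcctgcgTTTTAATtttctgtgga
Ptges3 canonical CPE, chr10:128076866-128076891 (+): attggattttTTTTATtttctgtttt

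The Ptgs2 region (chromosome 1, bases 150105783 to 150108010, plus strand) was 2228 bases long and held 3 canonical and 2 non-canonical CPEs, 2 polyadenylation signals and 12 AU-rich pentamers. Of the 12 pentamers, 7 lay between bases 16 and 61 of the region, of which the first window shows 4, and the one at base 1426 overlapped the CPE at base 1422. At least 12 pentamers were found in 1.87% of the 2089 regions within 20% of its length, whereas at least 5 CPEs were found in 38.1% of them. The nonamer TTATTTATT occurred once, as it did at least once in 10.6% of those regions. The last CPE, at base 2108, ended 115 bases before the end of the region, and the annotated transcript runs 217 bases further. What stands apart in this 3′-UTR by these counts is the number of AU-rich pentamers and not that of CPEs.

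The Pla2g4a region (chromosome 1, bases 149829618 to 149830060, minus strand) was 443 bases long, with 2 canonical CPEs, 1 polyadenylation signal and 4 AU-rich pentamers. Among the 1382 regions of like length, 13.1% held at least 2 canonical CPEs and 2.53% at least 4 pentamers. Its second CPE ended 26 bases before the polyadenylation signal, and a pentamer overlapped that CPE. Both regions were poor in G and C, with 33.4% in Ptgs2 and 30.7% in Pla2g4a, where the medians of regions of like length were 43.7% and 47.6%.

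Ptges (chromosome 2, bases 30889471 to 30892576, minus strand) had the longest region, 3106 bases, with 2 canonical and 2 non-canonical CPEs, of which the pair at bases 874 and 880 overlap by 1 base, and no AU-rich pentamer. At least 4 CPEs were found in 66.2% of the 1560 regions of like length and at least 1 pentamer in 96.2%, so that its lack of pentamers was the rarer feature. Its last CPE ended 1201 bases before the next polyadenylation signal. Ptges3 (chromosome 10, bases 128076087 to 128077272, plus strand, 1186 bases) held 1 canonical and 2 non-canonical CPEs, and at least 3 CPEs were found in 32.5% of the 2169 regions of like length. One of them, at base 865, ended 15 bases before a polyadenylation signal.

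The other members had short regions of 102 to 921 bases, and only that of Ltc4s (chromosome 11, bases 50236469 to 50236570, minus strand) held a CPE, which overlapped its polyadenylation signal. No CPE was found in the regions of Ptgs1 (chromosome 2, bases 36251352 to 36252272, plus strand), Ptges2 (chromosome 2, bases 32402329 to 32402739, plus strand) or Tbxas1 (chromosome 6, bases 39084371 to 39084585, plus strand). Nor was one found for Alox5 (chromosome 6, bases 116410077 to 116410718, minus strand) or Alox5ap (chromosome 5, bases 149287735 to 149288045, plus strand). Tbxas1 has another deposited 3′-UTR region, with fewer reads and therefore not used here (chromosome 6, bases 38952193 to 38952973). That region, 781 bases long, held 4 canonical CPEs by the deposited counts. All 10 regions lay inside the annotated 3′-UTR of their transcript. The Alox5ap region overlaps an exon of the antisense gene Gm19719 at bases 149287762 to 149287868, and since no source states that strand was used in counting, reads of both genes cannot be told apart there. The annotated 3′-UTR of Ptges2 runs 3033 bases past its region, so that most of it was not counted.

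**Figure D1:**
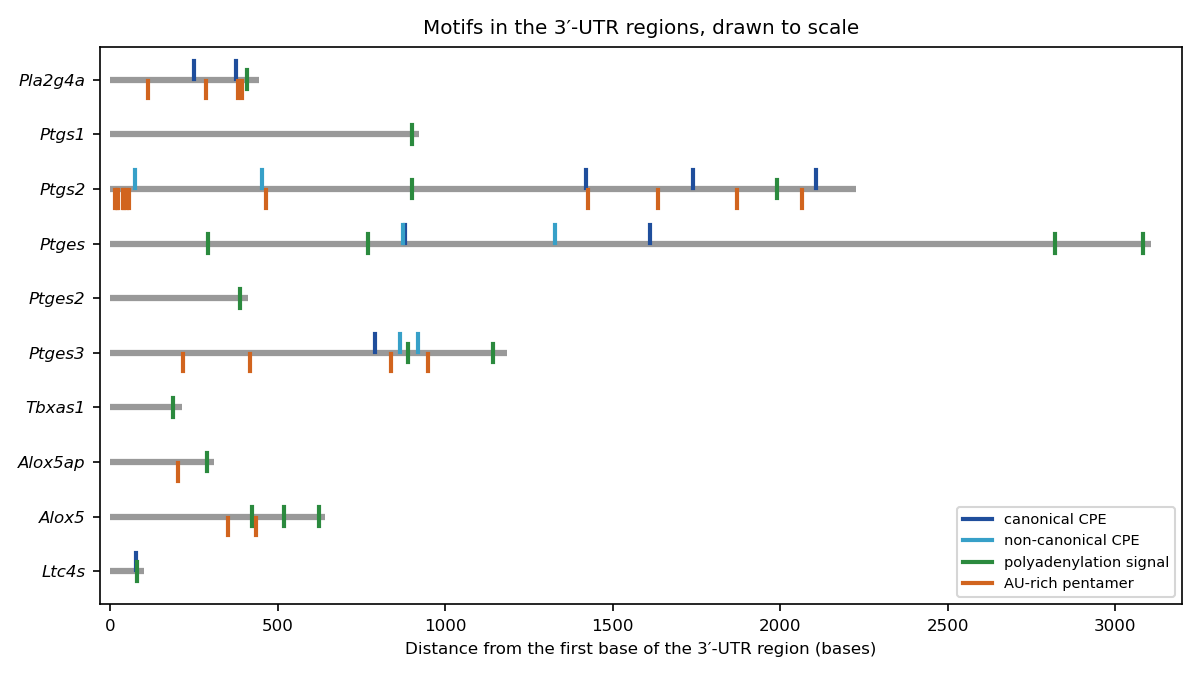
Motifs in the 10 counted 3′-UTR regions, drawn to scale; the x axis is the distance in bases from the first base of the region, ticks above the bar are CPEs, ticks below are AU-rich pentamers (ATTTA) and ticks on the bar are polyadenylation signals. Ptgs2 carries 12 pentamers, 7 of them at its start, and 5 CPEs, while 5 members have no CPE in the region drawn.

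The libraries held 467696 to 2492300 reads in 3′-UTRs with a gene symbol, and levels are given as counts per 1000000 of these reads (CPM). The KO RIPs were the shallowest, so that the floor of 3 reads stood for 6.41 CPM in the untreated KO RIP and for 1.58 CPM in the LPS WT Input. Counted 3′-UTR reads made up 46.9% to 51.5% of the library totals in the Inputs, 49.3% and 70.7% in the untreated and LPS WT RIPs, and 27.5% and 32.1% in the KO RIPs. Cpeb4 itself had 130.2 and 136.0 CPM in the WT Inputs and 52.0 and 52.6 CPM in the KO Inputs, untreated and with LPS, and 835.6 and 770.4 CPM in the WT RIPs against 256.6 and 367.2 CPM in the KO RIPs. The Cpeb4 3′-UTR was thus still counted in the KO, and where the deletion lies relative to it was not examined. Of 9 macrophage markers 8 were in the table, with a summed level of 2539 to 3557 CPM in the Inputs. Of 7 mast cell, 7 neutrophil, 3 B cell, 3 T cell and 4 fibroblast markers, only 1, 2, 2, 2 and 2 were in the table. These, among them Kit of mast cells and S100a8 and Ngp of neutrophils, had at most 3 reads in each Input. The platelet list, with 4 of 5 markers in the table, summed to 20.4 to 48.6 CPM in the Inputs. Of this, Pf4 gave 22.6 and 15.1 CPM in untreated WT and KO and 39.5 and 45.9 CPM with LPS. Ppbp, Gp9 and Gp1ba had at most 5 reads in any Input, so that the sum rests on Pf4. The part of platelets in the values of Ptgs1 and Tbxas1, genes that platelets also express, was not tested.

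Without LPS the leukotriene helper Alox5ap and the co-chaperone Ptges3 led the group. Per kilobase of region, Alox5ap stood at 494.9 CPM in the WT Input and 409.8 CPM in the KO Input, and Ptges3 followed with 61.7 and 83.9 CPM. The order after them was Ltc4s, Tbxas1 and Ptgs1 in the WT Input and Ltc4s, Tbxas1 and Ptges2 in the KO Input, all between 12.9 and 59.2 CPM per kilobase and resting on 4 to 11 reads each, too few to separate neighbours. Ptgs2 was at 0.483 and 0.338 CPM per kilobase, a single read in each Input, and Pla2g4a had no read in either, which allows up to 3 reads. With LPS Ptges led the Inputs, with 550.0 CPM per kilobase in WT and 653.0 in KO, followed by Alox5ap with 220.3 and 160.5, Ptgs2 with 171.0 and 141.6 and Ptges3 with 121.3 and 139.2. In KO the intervals of the last 3 genes overlapped, and in WT none did. In the LPS RIP libraries the order of the leading pair differed between the genotypes. Ptgs2 led in the WT RIP, with 564.8 CPM per kilobase against 328.8 for Ptges, and Ptges led in the KO RIP, with 407.9 against 261.1 for Ptgs2.

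**Figure D2:**
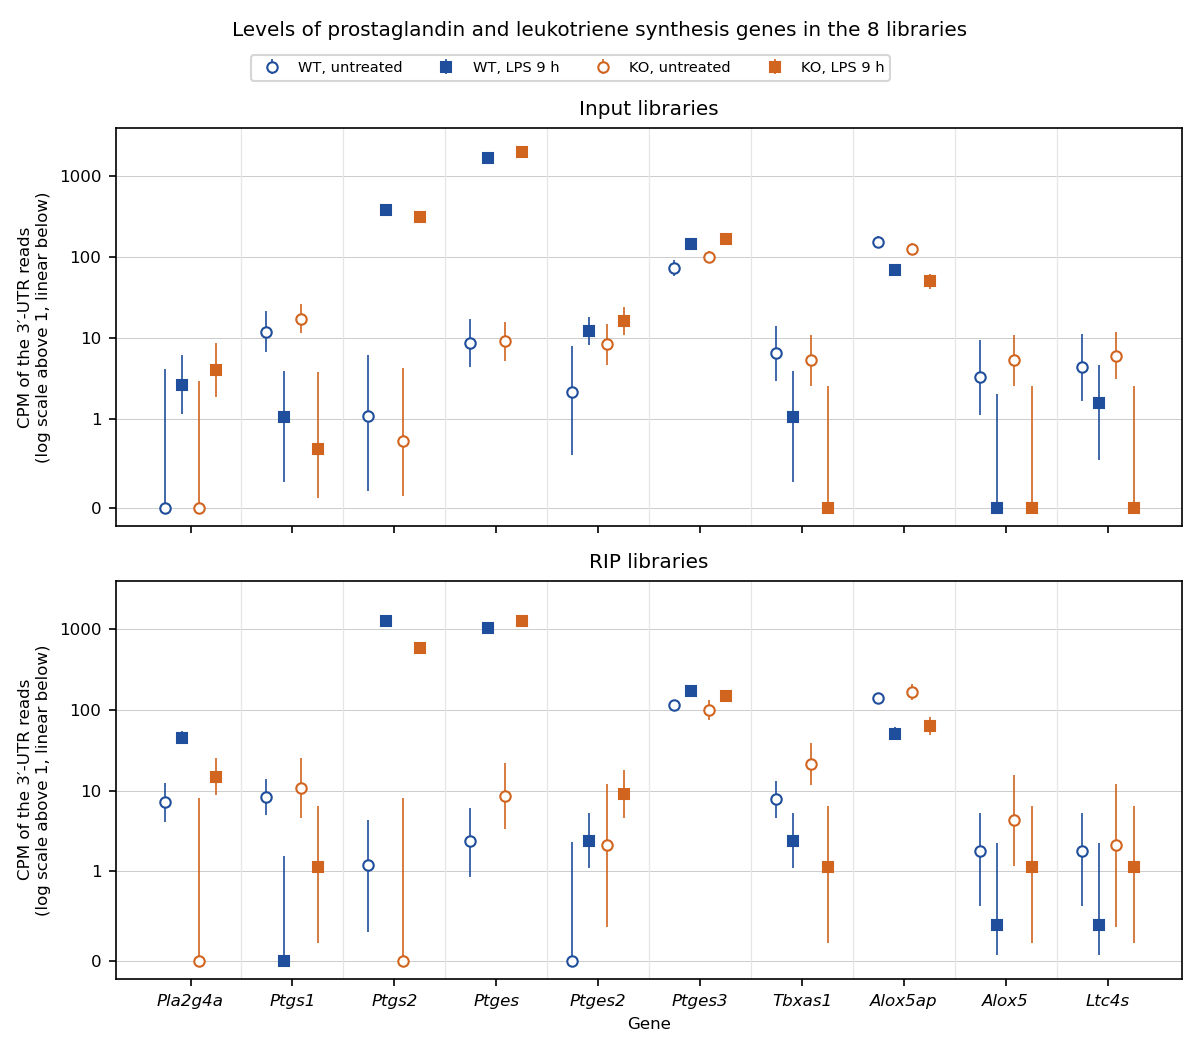
Levels of the 10 members in the 4 Input libraries (top) and the 4 RIP libraries (bottom), in CPM of 3′-UTR reads on an axis that is linear below 1 and logarithmic above; open circles are untreated and filled squares LPS, blue is WT and orange is KO, and bars are 95% Wilson intervals of the counting error. Ptgs2, with at most 2 reads, and Ptges, at 2.40 to 9.05 CPM, move to between 315.5 and 2028 CPM with LPS, and Alox5ap stands lower with LPS in all 4 pairs.

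The first question was how LPS changed these mRNAs in macrophages with and without CPEB4. Ratios below are log2 values scaled to the read sums, after 1 read was added to each library, and the range in parentheses is a 95% interval that covers counting error only. Where 1 library had 0 reads, a fold given as "at least" sets 3 reads in its place and takes the other count as exact. Such a fold is therefore not a lower limit for counting error in the other count. A gene counts as past the fold with a log2 ratio beyond 1 in either direction and at least 20 reads in the pair of libraries. Ptgs2 had 1 read in the untreated WT Input and 723 with LPS, and 1 and 474 in the KO Inputs, that is 1.08 against 381.1 CPM and 0.754 against 315.5 CPM. In the RIPs it had 2 and 3136 reads in WT, and 0 and 507 in KO. In every pair the LPS library was far above the untreated one. The log2 ratio was 7.47 (5.47 to 9.47) in the WT Inputs and 7.71 (5.71 to 9.72) in the KO Inputs, the 8th highest of 6872 genes and the 6th highest of 6996. In the WT RIPs it was 9.45 (7.82 to 11.1), and in the KO RIPs Ptgs2 was at least 90.7-fold higher with LPS, taking 3 reads as the floor in the untreated library. In bulk samples such as these, a change in the share of cells that express a gene and a change in the RNA per cell cannot be told apart.

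Ptges, the synthase that works with Ptgs2, moved with it. Its reads went from 8 to 3241 in the WT Inputs and from 12 to 3047 in the KO Inputs, and from 4 to 2545 and 4 to 1104 in the WT and KO RIPs. The log2 ratios were 7.46 (6.52 to 8.41) and 7.69 (6.91 to 8.48) in the Inputs and 8.41 (7.15 to 9.68) and 6.89 (5.62 to 8.16) in the RIPs, between the 5th and the 9th highest of all genes in the 4 pairs. Where both genotypes gave a ratio, the response to LPS differed between them by less than the counting interval. WT minus KO of the change in the Inputs was -0.24 (-3.07 to 2.59) for Ptgs2 and -0.23 (-1.46 to 0.998) for Ptges, and in the RIPs 1.52 (-0.27 to 3.31) for Ptges. No such value could be given for Ptgs2 in the RIPs, since it had no read in the untreated KO RIP. These intervals are wide because the untreated levels rest on few reads, and they leave room for changes that differ severalfold.

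Pla2g4a, which supplies the substrate, was scarce in the Inputs, with 0 reads untreated and 5 (WT) and 6 (KO) with LPS, but it was well counted in the WT RIPs. There it had 12 reads untreated and 112 with LPS, a log2 ratio of 2.54 (1.71 to 3.37), the 275th highest of 7661 genes. In the KO RIPs it had 0 and 13 reads, at least 2.33-fold higher with LPS. In the KO Inputs it was at least 1.77-fold higher, but the Wilson intervals overlapped there (0 to 2.90 CPM untreated and 1.83 to 8.71 CPM with LPS). Ptges3 was higher with LPS in all 4 pairs by less than the fold used, with log2 ratios of 0.96 (0.58 to 1.34) and 0.72 (0.42 to 1.03) in the WT and KO Inputs and 0.60 (0.35 to 0.84) and 0.55 (0.07 to 1.03) in the RIPs. Ptges2 had 2 and 23 reads in the WT Inputs and 11 and 24 in the KO Inputs, with log2 ratios of 1.97 (0.24 to 3.70) and 0.88 (-0.11 to 1.87). In the RIPs it had 0 and 6 reads in WT, at least 1.34-fold higher with LPS, and 1 and 8 in KO, 1.27 (-0.94 to 3.48).

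Alox5ap, of the leukotriene branch, and Ptgs1 stood lower with LPS. Alox5ap had 143 and 130 reads in the untreated and LPS WT Inputs, 169 and 75 in the KO Inputs, 233 and 127 in the WT RIPs and 78 and 55 in the KO RIPs. Scaled to the read sums, it was lower with LPS in all 4 pairs by nearly the same amount, with log2 ratios of -1.17 (-1.51 to -0.83), -1.34 (-1.73 to -0.95), -1.45 (-1.76 to -1.14) and -1.39 (-1.89 to -0.90). Ptgs1 had 11 and 2 reads in the WT Inputs and 23 and 1 in the KO Inputs, with log2 ratios of -3.03 (-4.86 to -1.20) and -3.77 (-5.85 to -1.68), and it was at least 6.98-fold lower in the LPS WT RIP, where it had no read against 14. In the KO RIPs it had 5 and 1 reads, -2.48 (-4.79 to -0.17). COX-1 and COX-2 mRNAs thus lay on opposite sides of 0 in the same libraries. Tbxas1 went from 6 to 2 reads in the WT Inputs and from 7 to 0 in the KO Inputs, and from 13 to 6 and 10 to 1 in the RIPs, with log2 ratios of -1.58 (-2.89 to -0.27) and -3.36 (-5.53 to -1.18) in the latter. Alox5 and Ltc4s had at most 8 reads in any library and were too scarce for a statement in most pairs. In the WT Inputs Ltc4s had 4 and 3 reads, -1.35 (-3.25 to 0.54), and in the KO Inputs they were at least 2.64-fold and 3.02-fold lower with LPS, each from 7 or 8 reads to 0.

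Counted against all genes, 5 of the 10 members had at least 20 reads in the WT Input pair, and 3 of them (Ptgs2, Ptges and Ptges2) were past the fold upwards and 1 (Alox5ap) downwards, where 15.0% and 15.3% of all genes were (30.2% in either direction). In the KO Input pair 6 members had enough reads, of which 2 (Ptgs2 and Ptges) were past the fold upwards and 2 (Ptgs1 and Alox5ap) downwards, against 13.7% and 19.6% of all genes (33.3% in either direction). In the WT RIPs 3 of 5 were higher (Ptgs2, Ptges and Pla2g4a) and Alox5ap lower, against 12.3% and 19.2% (31.5%). In the KO RIPs 2 of 4 were higher (Ptgs2 and Ptges) and Alox5ap lower, against 14.7% and 19.6% (34.3%). The median log2 ratio of the members with enough reads was 1.97, 0.80, 2.54 and 3.53 in these 4 pairs, the last with Ptgs2 at its bound, against -0.06, -0.16, -0.20 and -0.15 over all genes tested. Ptgs2, Ptges, Pla2g4a and, in the WT Inputs, Ptges2 reached the read minimum through the LPS library alone, and Ptgs1 in the KO Inputs through the untreated one, so that they could hardly have been counted without differing. The members' counts and medians therefore carry no weight against those of all genes. Other scalings moved all genes together. With the library totals as the scale the log2 ratios were higher by 0.07, 0.14, 0.52 and 0.22 in the 4 pairs, and with TMM by 0.14, 0.19, 0.37 and 0.27. Of all genes past the fold, the share that was higher went from 49.6%, 41.0%, 39.1% and 42.9% to 53.7%, 49.9%, 69.5% and 56.7% with the library totals, to 58.3%, 53.3%, 61.4% and 59.5% with TMM, and to 55.3%, 53.4%, 54.3% and 55.3% with median-of-ratios factors. Under all 3, Ptges3 in the WT Inputs and Ptges2 in the KO Inputs were also past the fold, and with the library totals Alox5ap was no longer past it in the WT RIPs and Ptges3 was past it there upwards.

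**Figure D3:**
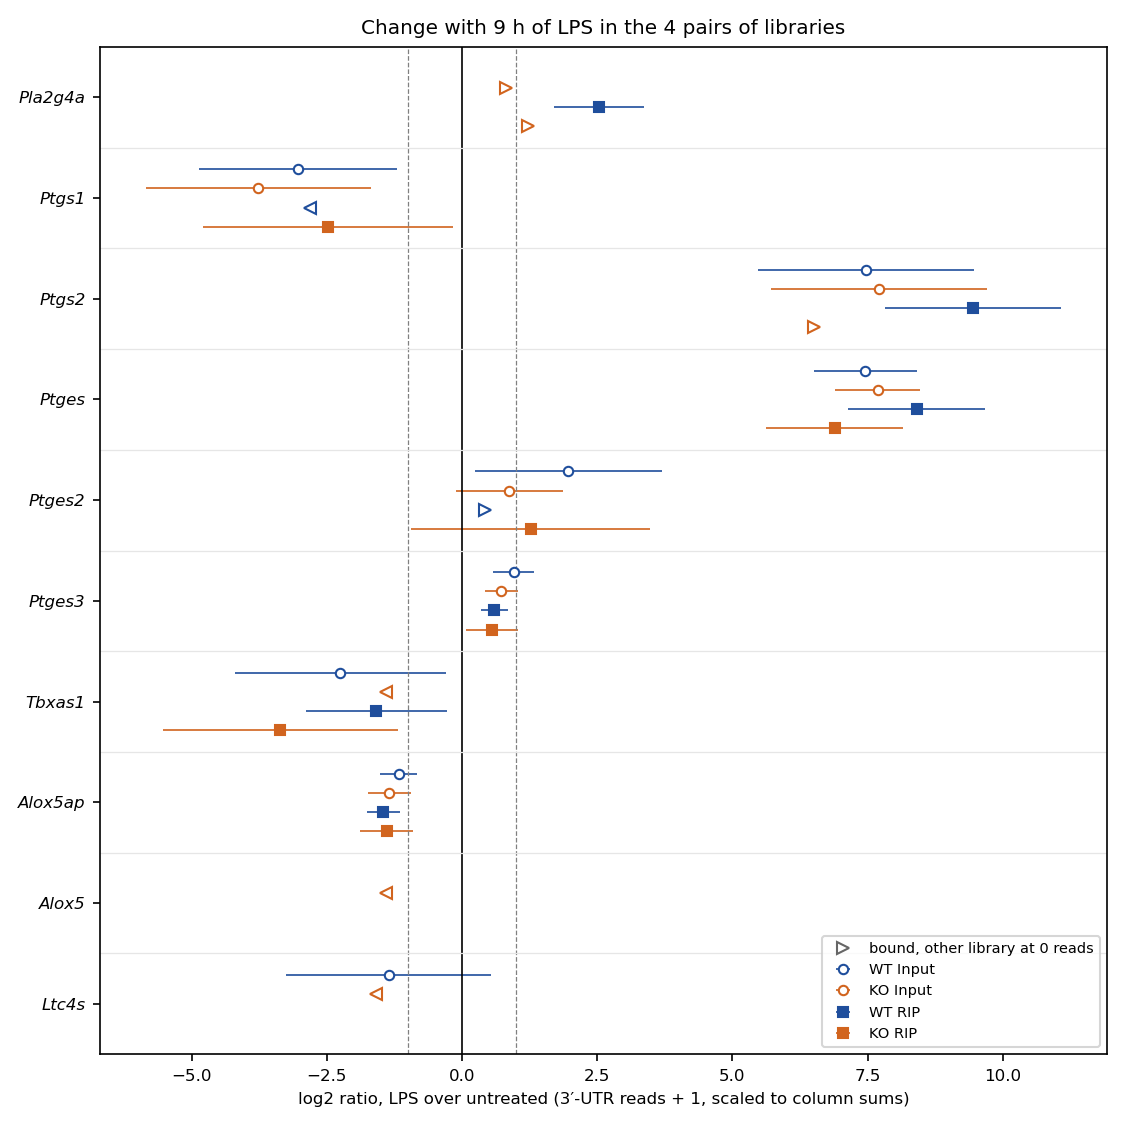
Log2 ratio of LPS over untreated for the 10 members in 4 pairs of libraries (x axis, 3′-UTR reads plus 1, scaled to the read sums); open circles are Inputs, filled squares RIPs, blue is WT and orange is KO, bars are 95% counting intervals, triangles are bounds where the other library has 0 reads, and dashed lines mark a log2 ratio of 1. Ptgs2 and Ptges lie at 6.89 to 9.45 apart from the bound in the KO RIPs, and Alox5ap at -1.17 to -1.45 in all pairs.

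The second question was which of these mRNAs the CPEB4 RIP held more of than the lysate. With LPS, Ptgs2 had 1258 CPM (1215 to 1303) in the WT RIP against 381.1 CPM (354.3 to 409.9) in the WT Input, and 581.8 CPM (533.3 to 634.6) in the KO RIP against 315.5 CPM (288.4 to 345.2) in the KO Input, with 95% Wilson intervals. The RIP was above the Input in both genotypes, by a log2 ratio of 1.72 (1.61 to 1.84) in WT, 3.30-fold, and of 0.88 (0.70 to 1.06) in KO, 1.84-fold. Among all genes the WT value lay at the 89.0th percentile and the KO value at the 82.8th. The RIP from cells without CPEB4 thus also held more Ptgs2 than its lysate, and the WT ratio alone is not a measure of CPEB4 binding. The KO value was 0.20 with the library totals as the scale. Duplicate reads had been removed before counting, so that the number of distinct reads a region can give is limited by its length. Ptgs2 in the LPS WT RIP had 1.41 reads per base of its region, more than the 0.213 to 0.324 in the other LPS libraries, and the effect of that limit on its ratio was not tested.

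Pla2g4a had the highest RIP over Input ratio of the members. With LPS it had 112 reads in the WT RIP against 5 in the Input, a log2 ratio of 3.84 (2.66 to 5.03), the 29th highest of 7637 genes, and 13 against 6 in KO, 1.79 (0.48 to 3.09). Untreated, it had 12 reads in the WT RIP and none in the Input, at least 2.23-fold more in the RIP, with Wilson intervals that just overlapped (4.12 to 12.6 and 0 to 4.13 CPM). It had no read in either untreated KO library. Ptges lay on the other side, with 1708 CPM in the WT Input and 1021 CPM in the WT RIP with LPS, and 2028 and 1267 CPM in KO. Its log2 ratios were nearly the same in the genotypes, -0.74 (-0.82 to -0.67) in WT and -0.68 (-0.78 to -0.58) in KO. The enzymes that act one after the other, COX-2 and the microsomal synthase, thus stood on opposite sides of 0 in this comparison, although both were far higher with LPS.

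Ptges3 stayed within a log2 ratio of 1 in all 4 pairs of RIP and Input, at 0.63 (0.23 to 1.02) and 0.26 (0.04 to 0.48) in WT, untreated and with LPS, and at 0.03 (-0.44 to 0.51) and -0.14 (-0.45 to 0.16) in KO. Alox5ap did so too, at -0.14 (-0.44 to 0.16) and -0.43 (-0.78 to -0.08) in WT and 0.40 (0.01 to 0.78) and 0.35 (-0.15 to 0.84) in KO. The WT value was above the KO value for Ptges3 and below it for Alox5ap under both treatments. Ptges2 with LPS had 6 reads in the WT RIP against 23 in the Input, -2.17 (-3.39 to -0.96), and 8 against 24 in KO, -0.69 (-1.79 to 0.41). Ptgs1 untreated had 14 against 11 reads in WT, -0.52 (-1.62 to 0.57), and 5 against 23 in KO, -0.50 (-1.79 to 0.79). Untreated Tbxas1 had 13 against 6 reads in WT, 0.16 (-1.15 to 1.47), and 10 against 7 in KO, 1.96 (0.65 to 3.28), both under 20 reads.

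Of 6 members with enough reads in the LPS WT pair, 2 (Ptgs2 and Pla2g4a) were past the fold towards the RIP and 1 (Ptges2) towards the Input, where 23.8% and 26.3% of all genes were (50.1% in either direction), so that about as large a share of all genes was past the fold as of the members. Pla2g4a reached the read minimum through the RIP alone and Ptges2 through the Input alone. No member was in the LPS KO pair (0 of 5, all genes 26.6% in either direction), nor in the untreated pairs (0 of 3 in WT and 0 of 3 in KO, against 46.5% and 27.2%). With the library totals as the scale, the share of genes past the fold that stood higher in the RIP went from 47.5% to 69.2% with LPS in WT, from 54.2% to 8.86% in untreated KO and from 53.9% to 10.9% with LPS in KO. TMM gave 60.4%, 42.5% and 48.9%. With the library totals Ptges and Ptges2 in the LPS KO pair and Ptgs1 in the untreated KO pair were past the fold towards the Input.

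**Figure D4:**
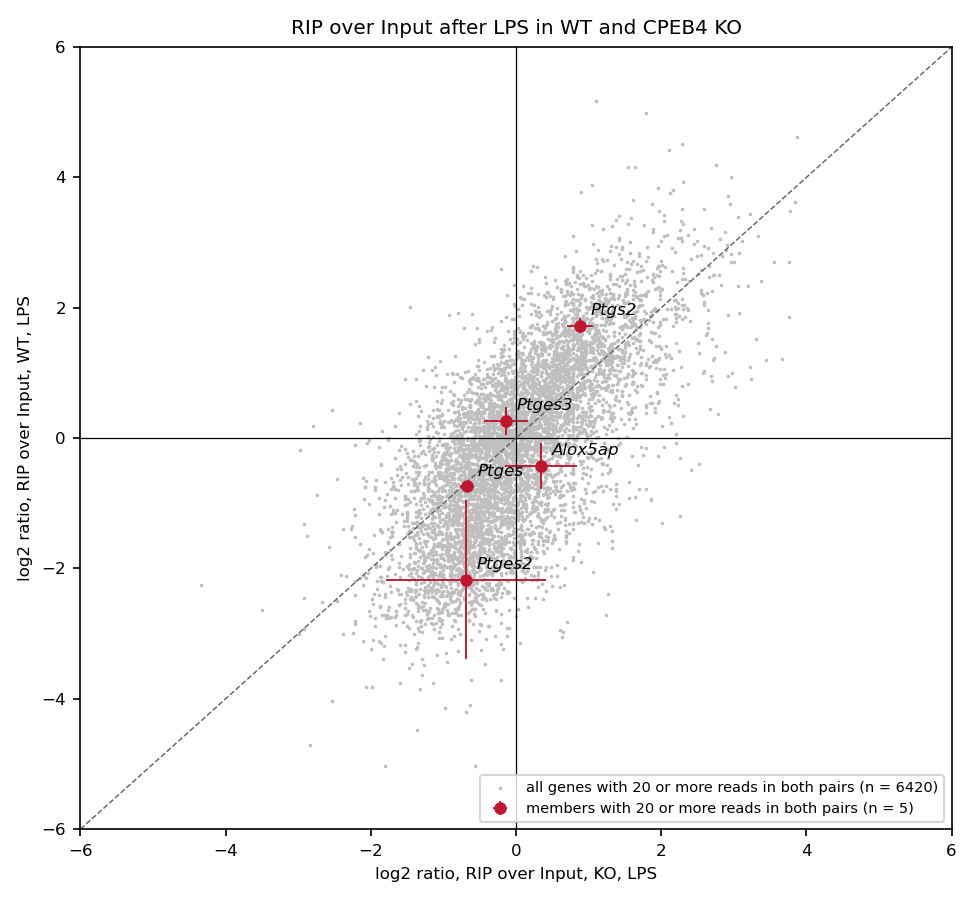
Log2 ratio of RIP over Input with LPS in KO (x axis) and in WT (y axis) for the 6420 genes with at least 20 reads in both pairs (grey) and the 5 members among them (red, with 95% counting intervals); the dashed line marks equal ratios. Ptgs2 lies above the line with 1.72 in WT and 0.88 in KO, Ptges close to it at -0.74 and -0.68, and Alox5ap below it at -0.43 and 0.35.

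The third question was how WT and KO differed, in the lysates and in the RIPs. In the Inputs the members were close. With LPS, Ptgs2 had a log2 ratio of WT over KO of 0.27 (0.10 to 0.44), Ptges of -0.25 (-0.32 to -0.18), Ptges2 of -0.40 (-1.20 to 0.41), Ptges3 of -0.20 (-0.45 to 0.05), Alox5ap of 0.45 (0.04 to 0.86) and Pla2g4a of -0.56 (-2.13 to 1.01). No member was past the fold in either treatment, 0 of 4 untreated and 0 of 5 with LPS, where 4.02% and 3.60% of all genes were (1.60% lower in WT with LPS). Of those past the fold with LPS, 55.6% were higher in WT, and 44.2% with median-of-ratios factors. COX-2 mRNA was thus 1.21-fold higher in WT with LPS and its partner synthase 1.19-fold higher in KO, and without a second sample of each genotype these small differences have no measure of spread.

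In the LPS RIPs, Ptgs2 and Pla2g4a were past the fold towards WT, 2 of the 5 members with enough reads, where 10.2% of all genes were higher and 13.8% lower. Pla2g4a, with 112 and 13 reads, reached the read minimum through the WT RIP alone, so that the count of 2 carries no weight against the share of all genes. Pla2g4a, with 44.9 CPM in the WT RIP and 14.9 in the KO RIP, had a log2 ratio of 1.50 (0.70 to 2.30), the 203rd highest of 7073 genes. The ratio of Ptgs2 was 1.11 (0.98 to 1.25), with an interval that reached below the threshold of 1, and it ranked 574th, at the 91.9th percentile. Ptges was at -0.31 (-0.41 to -0.21), Ptges3 at 0.21 (-0.08 to 0.49), Alox5ap at -0.32 (-0.78 to 0.13) and Ptges2, with 6 and 8 reads, at -1.88 (-3.30 to -0.45). In the untreated RIPs 1 of 3 members, Tbxas1 with 13 reads in WT and 10 in KO, was lower in WT by -1.48 (-2.62 to -0.35), where 9.85% of all genes were higher and 11.0% lower. That call was lost with a minimum of 50 reads and when only the longest 3′-UTR region of the gene was used. Ptges3 was at 0.16 (-0.30 to 0.62) and Alox5ap at -0.27 (-0.63 to 0.10) there.

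Scaling mattered more in the RIPs than elsewhere. Of genes past the fold between the RIPs, 47.2% untreated and 42.4% with LPS were higher in WT. These shares were 71.7% and 72.0% with TMM, 58.8% and 57.5% with median-of-ratios factors, and 98.5% and 98.2% with the library totals. The log2 ratios of all genes between the LPS RIPs were higher by 0.34, 0.16 and 1.14 under these 3 scalings. That of Ptgs2 was 1.45 with TMM, 1.27 with median-of-ratios factors and 2.25 with the library totals, higher in WT under each. The ratio of Ptges turned from -0.31 to 0.03 with TMM and to 0.83 with the library totals. With the library totals Ptges3 was past the fold in both RIP pairs and Tbxas1 no longer was in the untreated pair.

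Subtracting the Input log2 ratio from the RIP log2 ratio sets the RIPs against the mRNA level in the lysates. With LPS this input-corrected value was 0.84 (0.62 to 1.05) for Ptgs2, the 772nd highest of the 5478 genes that reached 10 reads in all 4 libraries, whose median was -0.07. Pla2g4a had 2.06 (0.29 to 3.82), on 5 and 6 Input reads and thus outside those 5478 genes. Ptges3 had 0.40 (0.03 to 0.78) and Ptges -0.06 (-0.19 to 0.06), while Alox5ap had -0.77 (-1.38 to -0.16) and Ptges2 -1.48 (-3.12 to 0.16). The counting intervals of Ptgs2, Pla2g4a and Ptges3 thus lay above 0, that of Alox5ap below it and that of Ptges around it. Among the 5478 genes Ptgs2 lay at the 85.9th percentile, Ptges3 at the 70.7th, Ptges at the 50.6th and Alox5ap at the 24.4th. Values as far from the median as those of Ptges3 and Alox5ap were thus common. Untreated, Ptges3 had 0.59 (-0.03 to 1.21) and Alox5ap -0.54 (-1.03 to -0.05), and for Ptgs2 and Pla2g4a no untreated value could be given, since they had at most 2 reads in at least 3 of the 4 libraries. The other scalings gave Ptgs2 1.07 to 2.04, and they turned Ptges to 0.17 with median-of-ratios factors, 0.30 with TMM and 1.13 with the library totals. Under the library totals Ptges3 had 1.60 with LPS, and Alox5ap turned to 0.29 untreated and 0.43 with LPS.

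**Figure D5:**
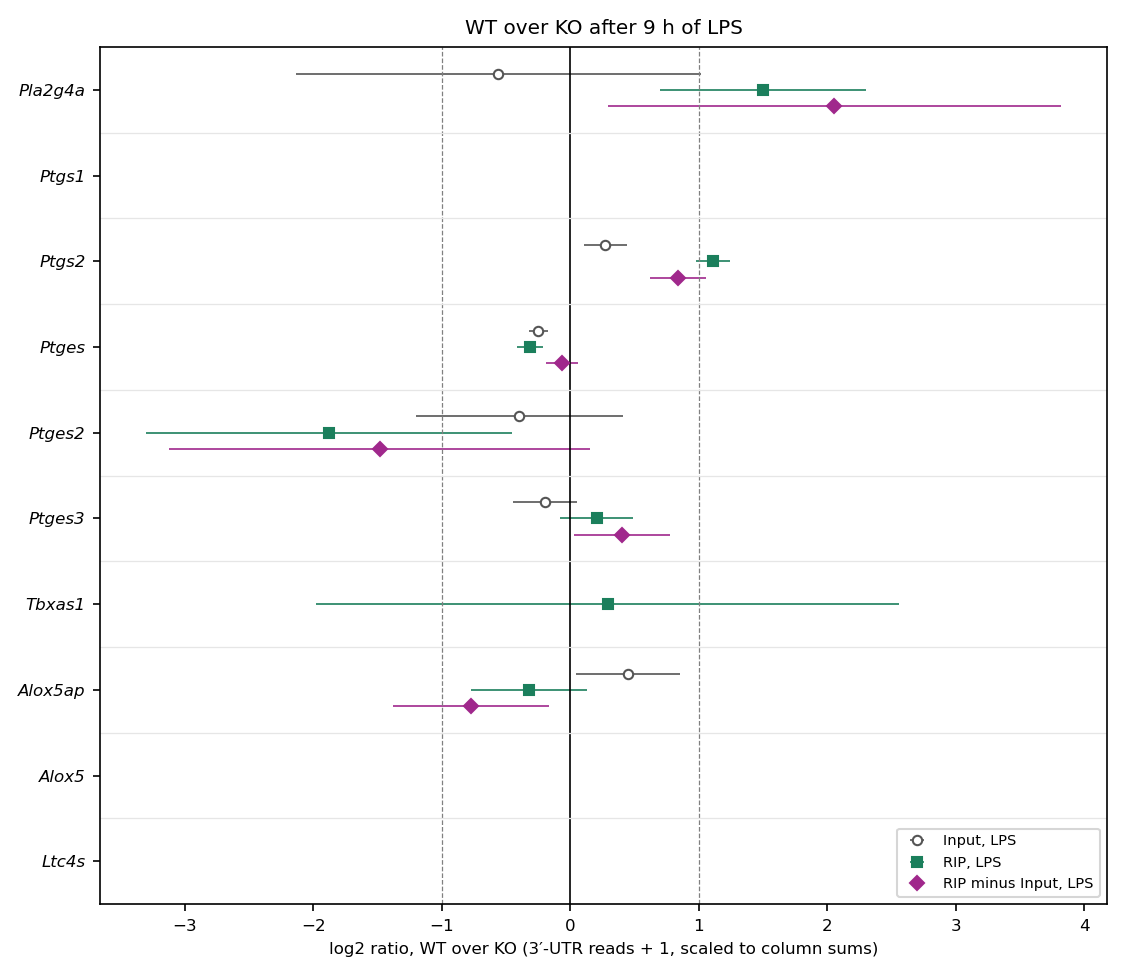
Log2 ratio of WT over KO with LPS (x axis) in the Inputs (grey circles), in the RIPs (green squares) and as the RIP ratio minus the Input ratio (purple diamonds), with 95% counting intervals; dashed lines mark a log2 ratio of 1, and members without a marker had too few reads. The RIP ratios of Ptgs2 (1.11) and Pla2g4a (1.50) lie past the line at 1, and that of Ptges2 (-1.88, on 6 and 8 reads) past the line at -1. The Input ratios of all members shown lie between the lines.

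Within a genotype, the LPS change in the RIP less the LPS change in the Input was near 0 for the members counted well in all 4 libraries. It was -0.36 (-0.82 to 0.09) in WT and -0.17 (-0.74 to 0.39) in KO for Ptges3, and -0.28 (-0.75 to 0.18) and -0.05 (-0.68 to 0.58) for Alox5ap. For Ptges it was 0.95 (-0.63 to 2.53) in WT and -0.80 (-2.29 to 0.69) in KO, and for Ptgs2 in WT 1.98 (-0.60 to 4.56), each resting on 1 to 4 untreated reads in some library. None of these intervals excluded 0, so that an LPS effect on the share of these mRNAs in the RIP was not detectable at this depth.

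The members' values can be set beside those of other genes with the same number of CPEs. Genes with no CPE had a median input-corrected value with LPS of -0.89 (quartiles -1.44 and -0.23, 1222 genes), those with 3 CPEs of 0.03 (-0.48 and 0.57, 536 genes), those with 4 of 0.16 (-0.25 and 0.66, 404 genes) and those with 5 of 0.24 (-0.29 and 0.66, 338 genes). Ptgs2 with 5 CPEs stood above the upper quartile of its class, Ptges3 with 3 and Ptges with 4 lay between the quartiles of theirs, and Alox5ap with none lay close to the median of its class. The number of CPEs goes with length and base composition: regions without a CPE had a median length of 639 bases and 51.6% G and C, and those with 5 a median of 2098.5 bases and 42.5%. These features cannot be told apart from the CPE here.

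Of a wider list of 65 genes of eicosanoid supply, synthesis, transport and reception, 53 were in the table. Past the fold with LPS were 8 upwards and 6 downwards of the 25 with enough reads in the WT Inputs (15.0% and 15.3% of all genes), and 6 and 6 of 24 in the KO Inputs (13.7% and 19.6%). Some of them reached the read minimum through 1 library alone, among them Pla2g16 (4 reads untreated and 56 with LPS in WT) and Abcc4 (11 and 69). These counts therefore carry no weight against the shares of all genes. Higher in both genotypes were Acsl1, an acyl-CoA synthetase, by 7.41-fold in WT and 9.04-fold in KO, the phospholipase gene Pla2g16, with log2 ratios of 2.48 and 2.71, the export pumps Abcc1 (1.30 and 1.63) and Abcc4 (1.51 and 3.02), and the prostacyclin receptor gene Ptgir (1.47 and 1.72). Lower in both were the diacylglycerol lipase genes Dagla (-1.57 and -2.79) and Daglb (-2.98 and -3.83), the lysosomal phospholipase Pla2g15 (-2.25 and -2.27), the prostaglandin D synthase Hpgds, just past the fold in both (-1.01 in WT) and short of it under the other 3 scalings (-0.81 to -0.94), and the prostaglandin reductase Ptgr2 (-2.59 and -1.32). The counted regions of Daglb and Ptgr2 overlap exons of Rac1 and Gm47484, so that their values are uncertain.

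Between the LPS RIPs, 3 of 21 genes of the wider list were higher in WT and 4 lower (10.2% and 13.8% of all genes). The higher ones were Cysltr1, a cysteinyl leukotriene receptor, with 1.69 (0.95 to 2.44), Lpcat2, a lysophospholipid acyltransferase, with 1.64 (0.85 to 2.44), and the phospholipase gene Pla2g12a with 1.11 (0.19 to 2.03). The lower ones included Dagla with -2.98 (-4.14 to -1.81), Pla2g16 with -1.42 (-2.16 to -0.67) and the acyltransferase gene Mboat7 with -1.06 (-1.67 to -0.46). Cysltr1 (147 reads in WT and 15 in KO), Lpcat2 (124 and 13) and Pla2g12a (67 and 10) reached the read minimum through the WT RIP alone. Dagla (7 and 21) did so through the KO RIP alone, so that these counts of genes carry no weight against the shares of all genes. Of the genes named, 3 were past the fold in the same direction in the untreated RIPs: Mboat7 with -1.44 (-2.10 to -0.78), Pla2g12a with 1.25 (-0.24 to 2.75), and Lpcat2, with 20 reads in WT and none in KO, at least 1.87-fold higher. The Wilson intervals of Lpcat2 overlapped there (7.77 to 18.5 and 0 to 8.21 CPM). Pla2g12a (33 and 3 reads) and Lpcat2 reached the read minimum there through the WT RIP alone. With the library totals as the scale the lower ratios were -1.83 for Dagla, -0.28 for Pla2g16 and 0.08 for Mboat7, so that the last changed direction. Input-corrected with LPS, Cysltr1 had 1.69 (0.46 to 2.92), Lpcat2 1.44 (0.47 to 2.41) and Pla2g12a 1.38 (0.14 to 2.63), on 10 to 15 KO RIP reads. Ptgr2, within the fold between the RIPs, had 1.52 (0.48 to 2.55). All were above the 0.84 of Ptgs2, but each interval overlapped that of Ptgs2, 0.62 to 1.05.

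The genes whose levels over the 8 libraries were most like those of Ptgs2 included Il1a, Cd38, Gbp5 and Il12b, at distances of 1.85, 2.25, 2.27 and 2.39. The measure was the Euclidean distance between mean-centred log2(CPM + 1) values, over 5165 genes with at least 200 reads in all, with a median distance of 12.2. LPS sets most of each pattern. Their log2 ratio of RIP over Input with LPS in WT was -0.03 to 0.50, against 1.72 for Ptgs2. Between the LPS Inputs, Il1a and Il12b were higher in WT by 1.52 (1.30 to 1.74) and 1.80 (1.47 to 2.13), where Ptgs2 had 0.27, and between the LPS RIPs by 1.35 (1.11 to 1.58) and 1.60 (1.27 to 1.92), where Ptgs2 had 1.11. Cd38 and Gbp5 had 0.05 and 0.04 in the Inputs and 0.29 and -0.37 in the RIPs. Their input-corrected values with LPS were 0.25 (-0.05 to 0.55) for Cd38, -0.17 (-0.50 to 0.15) for Il1a, -0.21 (-0.67 to 0.26) for Il12b and -0.41 (-0.65 to -0.17) for Gbp5, and none of these intervals overlapped that of Ptgs2, 0.62 to 1.05.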

How the data were processed

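RIP and Input RNA of 8 libraries had been sequenced as single-end reads. The authors aligned them to mm10 with Bowtie2 2.2.2, removed duplicates and counted overlaps with Ensembl 3′-UTRs, and MACS 1.4.2 was used for peaks. The authors deposited counts of reads per 3′-UTR, RPKM values and motif counts. The strand setting is not given in the sources used here. Deposited columns of log2 fold changes, p-values and scores between libraries were not used, and the RPKM values served only to recover library totals.

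The region with the most reads stood for each gene. Rows without a symbol (0.902% to 1.04% of reads) were left out. Ratios, with 1 read added, were scaled to the read sums and have 95% normal intervals. Intervals and floors (3 reads per library) cover counting error only. The members, the wider list and the markers were chosen by function, with earlier results of these data known. Genes named are the members, list genes past the fold in both Input pairs or in a RIP pair with at least 50 Input reads, and the 5 genes nearest to Ptgs2, of which some are not reported here. Alternatives were other scalings, minima, added reads and regions, the methods' chi-square test and edgeR 4.0.16 with a preset dispersion. The calculations, in Python 3.11.15 and R 4.3.3, were tested on simulated data.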

Additional observations from a re-analysis of the deposited data

How the results depend on the processing

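With 1 library per group no value has a replicate check, chi-square calls compare libraries and not conditions, and the depth of the KO RIPs limits every member but Ptges3 and Alox5ap, and Ptgs2 and Ptges where an untreated library enters. No paired analysis was possible because the replicate numbers are lanes of 1 library, summed in 1 column, and the title numbers 76 and 73 each mark a single genotype. Ptgs2 kept its direction in each comparison under each alternative. Its log2 ratio of RIP over Input with LPS in WT was 2.02 with TMM, 1.90 with median-of-ratios factors and 2.24 with the library totals, and 0.20 with the library totals in KO. WT over KO in the LPS RIPs was 1.45, 1.27 and 2.25 under these 3 scalings, and the input-corrected value 1.199, 1.07 and 2.04. The input-corrected value of Ptges with LPS was 0.30, 0.17 and 1.13, and its RIP ratio turned to 0.026 with TMM and 0.83 with the library totals. With the library totals, Ptges3 had input-corrected values of 1.42 untreated and 1.60 with LPS, and Alox5ap turned to 0.087 (RIP over Input, LPS WT), -0.37 (untreated KO), 0.29 (input-corrected, untreated) and 0.43 (LPS). The library totals shifted the median of all genes between WT and KO by 0.84 (untreated RIPs) and 1.14 (LPS RIPs). The cause of these shifts was not tested.

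Counts of members past the fold moved by over 1.5 times as follows. With a minimum of 1 read they were 9, 8, 9 and 8 for LPS in the WT Inputs, KO Inputs, WT RIPs and KO RIPs, 4, 5, 2 and 4 for RIP over Input in untreated WT, LPS WT, untreated KO and LPS KO, and 1, 2, 5 and 6 for WT over KO in the untreated and LPS Inputs and the untreated and LPS RIPs. This minimum lets in pairs such as Alox5 in the WT Inputs, with 3 reads untreated and 0 with LPS. The share of all genes past the fold at this minimum is not given here. These counts therefore carry no weight as a response of the group. With edgeR and a preset dispersion the count moved down in 6 comparisons. These were LPS in the WT Inputs, KO Inputs and WT RIPs, RIP over Input in LPS WT, and WT over KO in both RIP pairs. The share of all genes called was lower there too. The methods' chi-square test moved the count up for RIP over Input in LPS KO, where the share of all genes was also higher. Calls of both tests compare 1 library with 1 library and are given without counts. Summing the distinct regions of a gene gave 1 for RIP over Input in untreated WT, untreated KO and LPS KO, and 2 for WT over KO in the untreated RIPs. The regions of Pla2g4a, Ptges, Ptges3 and Ltc4s lie one inside the other. Their sums therefore count the same reads more than once, which also lets Pla2g4a reach the read minimum more easily. A log2 threshold of 0.5 gave 2 and 3 for RIP over Input in untreated WT and LPS KO. The library totals gave 1 and 2 in untreated and LPS KO. WT over KO in the untreated RIPs gave 0 with the longest region and 0 with a minimum of 50 reads. The other 103 counts stayed within 1.5 times.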
